A study of Caenorhabditis elegans with 2 samples.

Results

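Autosomal peaks at one-strand promoters were 739 of the 2570 ChIP-seq peaks of eGFP-tagged EGL-5 that the authors kept after comparing replicates, a share of 28.8% (95% exact binomial interval 27.0 to 30.5). A peak was a member when it lay on chromosomes other than X and its summit, the base of highest signal, fell in a promoter window of protein-coding genes on 1 strand only. Each window spans the 1000 bp before and the 200 bp after an annotated start of a transcript. The worms of this 1 group were whole L3 larvae of strain OP54, mixed in sex and of unknown age, with the alleles unc-119(ed3) III and wgIs54, an insertion that carries the tagged egl-5. The 2 samples are biological replicates of this group. There was no untagged or input group, and the control experiment that the labels name was not analysed here. Whole larvae were used, so a peak cannot be assigned to a tissue.

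EGL-5 is a Hox protein of the Abdominal-B type, a homeodomain factor that acts in the posterior body, where Hox proteins give cells their regional fate together with cofactors of the Pbx class. A promoter that serves genes on 1 strand usually has its nearest upstream neighbour far away or running in the same direction. A divergent promoter lies between genes that run away from each other. In worms the annotated start of a gene is often the site where a short leader RNA is joined to the transcript, and genes in an operon share 1 upstream promoter, so the distances below refer to annotation, not to the base where RNA synthesis begins.

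To show what lies under these summits, 101-base windows around 9 of them are given on the ce11 build, each 5′ to 3′ on the strand of its gene. Those of dld-1, rps-28, hrpa-1 and egl-5 are 4 of the 6 highest-scoring members, and the other two, of tub-2 and egg-5, are not shown. Those of lec-1, gpb-1 and spat-2 show the GA repeat in its different strands and lengths and were chosen after the values were seen. Those of rsp-6 and nurf-1 were the highest-scoring with each E-box, the recognition hexamer of basic helix-loop-helix factors. Capitals mark GAGAGA or its complement TCTCTC in egl-5, lec-1, gpb-1 and spat-2, CCGCCC (the complement of GGGCGG) in rps-28, TTTTTT in hrpa-1, CAGCTG in rsp-6 and CACGTG in nurf-1. No capitals stand in dld-1, which holds none of the 10 hexamers searched.
dld-1 (chrIV:14464224-14464324, plus strand): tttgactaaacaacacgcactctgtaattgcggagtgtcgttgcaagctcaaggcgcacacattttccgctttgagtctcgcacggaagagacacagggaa
rps-28 (chrIV:1659187-1659287, plus strand): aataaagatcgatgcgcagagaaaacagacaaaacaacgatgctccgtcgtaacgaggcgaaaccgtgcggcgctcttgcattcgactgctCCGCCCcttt
hrpa-1 (chrIV:3338866-3338966, minus strand): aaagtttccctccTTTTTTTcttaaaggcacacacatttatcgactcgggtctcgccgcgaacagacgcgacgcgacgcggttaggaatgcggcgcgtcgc
egl-5 (chrIII:7814275-7814375, plus strand): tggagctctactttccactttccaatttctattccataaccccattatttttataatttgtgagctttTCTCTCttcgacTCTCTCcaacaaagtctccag
lec-1 (chrII:13195369-13195469, plus strand): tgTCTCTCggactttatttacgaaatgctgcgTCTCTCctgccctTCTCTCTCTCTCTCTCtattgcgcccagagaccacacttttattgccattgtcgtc
gpb-1 (chrII:11746916-11747016, minus strand): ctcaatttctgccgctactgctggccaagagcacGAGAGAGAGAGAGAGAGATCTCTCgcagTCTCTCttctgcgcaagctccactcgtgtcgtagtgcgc
spat-2 (chrIII:11036262-11036362, plus strand): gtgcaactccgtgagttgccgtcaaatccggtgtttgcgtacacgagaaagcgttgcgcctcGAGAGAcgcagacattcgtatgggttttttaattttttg
rsp-6 (chrIV:7791355-7791455, minus strand): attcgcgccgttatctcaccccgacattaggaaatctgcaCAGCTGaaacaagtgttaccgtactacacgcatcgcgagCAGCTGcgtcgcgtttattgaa
nurf-1 (chrII:14399724-14399824, plus strand): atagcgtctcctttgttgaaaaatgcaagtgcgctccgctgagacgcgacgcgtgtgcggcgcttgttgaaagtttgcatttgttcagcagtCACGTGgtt

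The egl-5 window holds TCTCTC on the gene strand at 2 places, whereas the spat-2 window holds GAGAGA. The lec-1 window holds a TCTCTC run, and the gpb-1 window holds a GA run followed directly by CT, so that both strands read GAGAGA there. The windows of dld-1, rps-28 and hrpa-1 contain neither form. Of the 20 highest-scoring members, 6 held the hexamer in 1 form or the other, tub-2 and egl-5 among them, and 14 did not.

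The scores used below are the authors' own peak scores, which rank peaks within a list and have no stated unit. Their median over the members was 41.6, with quartiles of 35.1 and 53.0 and a range of 30.8 to 146.2. The same peaks had a median of 16.4 in the list of replicate 1 (n = 733, range 2.74 to 71.4) and of 26.9 in that of replicate 2 (n = 738, range 5.15 to 94.2). All peaks of those lists had medians of 4.28 and 7.03 in replicate 1 and replicate 2. Of the members, 10 scored under the median of the replicate 1 list and 6 had no peak in it, and 3 scored under that of the replicate 2 list, from which 1 was missing. Among the 100 highest-scoring peaks of the whole set, 28 were members, and among the 50 highest, 10 were. A replicate score is that of the highest overlapping peak, and for 17 members in each replicate list that peak also overlapped a neighbouring peak of the thresholded set.

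The members covered many kinds of gene. Windows of 713 members belonged to 1 gene and those of 26 members to 2, and in all 724 of the 17242 autosomal protein-coding genes (4.20%) had a member peak. Of these genes, 687 had 1 member peak, 33 had 2 and 4 had 3. The 363 members at genes on the plus strand and the 376 at genes on the minus strand were nearly equal in number.

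The highest member lay 243 bp upstream of dld-1, which encodes the dihydrolipoamide dehydrogenase of mitochondrial enzyme complexes, with a score of 146.2 and values of 50.6 in replicate 1 and 94.2 in replicate 2. The second lay 454 bp upstream of rps-28, a protein of the small ribosomal subunit, and scored 144.9, with 51.4 in replicate 1 and 93.5 in replicate 2. The window of a further gene, Y41D4B.4, also holds that summit. Both peaks were thus higher in replicate 2 on that list's own scale, and their scores there ranked 7 and 8.

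The peak at tub-2, which encodes a Tubby-type protein, lay 17 bp upstream of its start and scored 130.6, with 71.4 in replicate 1 and 65.0 in replicate 2. It was the highest member of the replicate 1 list, and its summit also lies in a window of Y71G12A.5. The peak of egg-5, an egg-activation protein related to phosphatases, lay 602 bp upstream with a score of 121.5, and had 56.7 in replicate 1 and 65.7 in replicate 2. The peak at hrpa-1, an RNA-binding protein of the hnRNP A1 type, lay 49 bp upstream with 118.8, 44.3 in replicate 1 and 73.3 in replicate 2. All 5 named peaks were within the 56 highest of replicate 1 and the 45 highest of replicate 2.

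The egl-5 gene itself had 2 member peaks. The higher one lay 49 bp upstream of its start and scored 118.4, and the second, with its summit 148 bp downstream of a start and in an exon, scored 31.4. Both overlapped the same replicate peaks, with 64.75 in replicate 1 and 53.9 in replicate 2. The inserted array carries egl-5, and whether extra copies of the locus contribute to these scores was not tested. These were the only members within 20 kb of egl-5. The neighbouring Hox gene mab-5 had a member peak 906 bp upstream with a score of 59.4, which had 17.5 in replicate 1 and 41.0 in replicate 2.

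The other peaks among the 20 highest scored from 89.8 to 116.9. They included RNA-binding protein gene rbm-39 (116.9), the acetylcholine receptor subunit gene acr-7 (108.6), the ribosomal protein gene rpl-3 (106.3) and the gene of the chromatin-remodelling subunit nurf-1 (104.3). The acetyltransferase gene cbp-1 (101.9), the gene pair mif-3 and F13G3.10 (98.2), rpl-35 (98.0) and T28F4.5 (93.1) followed. The AAA-ATPase gene cdc-48.1 (92.6), the constitutive chaperone gene hsp-1 (92.0), the ubiquitin ligase gene wwp-1 (90.9), rpl-23 with swp-1 (90.3) and the translocon subunit gene sec-61.G with F32D8.13 (89.8) closed the 20, and F02E9.5 had 112.7. In these 20 the replicate 1 values ran from 25.85 to 71.4 and the replicate 2 values from 40.9 to 94.2. Every one of the 20 was also among the 2570 highest peaks of each replicate. The peak of mif-3 differed most in rank, at 418 in replicate 1 with 25.85 and 28 in replicate 2 with 71.3.

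The highest-scoring member of each autosome was that of tub-2 on chromosome I, acr-7 on II, egl-5 on III, dld-1 on IV and sec-61.G on V. At the lower end of the set, the 10 lowest members scored between 30.8 and 30.9. They lay at ssup-72, the casein kinase gene csnk-1, the Pbx-type Hox cofactor gene ceh-20, W01D2.3, sec-12, hmg-1.1, efhd-1 and, as lower peaks of genes with a higher member, sor-1, dmd-7 and nurf-1. The csnk-1 peak had 5.92 in replicate 1 and 23.5 in replicate 2, and the ceh-20 peak had 17.0 in replicate 1 and 13.6 in replicate 2. The low sor-1 peak overlapped the same replicate peaks as the higher one of that gene (72.9), with 28.6 in replicate 1 and 52.7 in replicate 2, so these values do not belong to it alone. The second nurf-1 peak had 23.4 in replicate 1 and no overlapping peak in the replicate 2 list.

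**Figure D1:**
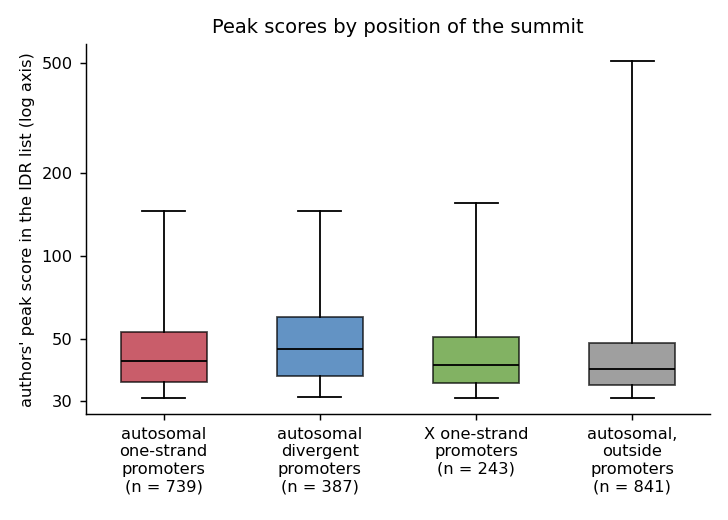
Authors' peak scores in the thresholded list on a log axis for the 739 members, 387 autosomal divergent, 243 X one-strand and 841 autosomal peaks outside promoters; boxes are quartiles with the median, and whiskers reach the lowest and highest peak. The boxes overlap widely, with medians of 41.6, 46.2, 40.4 and 39.1.

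By median, members scored lower than peaks at divergent promoters and higher than autosomal peaks outside promoters. The highest score of the latter was 509.8, however, above the 146.2 of the highest member. A score above the median of all peaks, 40.97, was found in 52.6% of members and in 62.3% of divergent peaks (odds ratio 0.673, Fisher's exact test, two-sided, Benjamini-Hochberg adjusted p = 0.00297). Of the autosomal peaks outside promoters, 42.9% were above it (odds ratio of members 1.48, Fisher's exact test, adjusted p = 0.000372). Against X one-strand promoters, with 49.0%, the odds ratio was 1.16 and the difference did not pass (Fisher's exact test, adjusted p = 0.337). The call against divergent promoters was lost when replicate 1 was left out (odds ratio 0.813), when the upstream window was 500 bp (0.731), and among peaks above the median score (0.797) or supported by both replicates (0.746). That against peaks outside promoters was lost with a 2000 bp window (1.22) and among peaks above the median score (1.18). All of these tests count peaks, not worms, and neighbouring peaks are not independent.

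The thresholded set holds the highest-scoring part of the pooled list, in which both replicates were analysed together, so its share of the pooled peaks can be given by position. Of all 28619 pooled peaks, 8.98% were in the set. At autosomal one-strand promoters it was 739 of 6745 (11.0%, interval 10.2 to 11.7), against 387 of 1315 at divergent promoters (29.4%; odds ratio 0.295, Fisher's exact test, adjusted p = 8.79e-59). Peaks outside promoters were kept less often, with 841 of 14181 (5.93%; odds ratio of members 1.95, Fisher's exact test, adjusted p = 1.09e-35). X one-strand promoters kept 243 of 1822 (13.3%; odds ratio of members 0.800, Fisher's exact test, adjusted p = 0.00546), a difference that was lost with a 500 bp window (0.958). By distance, the kept share of one-strand peaks was 7.04% at 1000 to 751 bp upstream, 8.56% at 750 to 501 bp, 14.5% at 500 to 251 bp, 17.6% at 250 to 101 bp, 12.3% at 100 to 1 bp and 4.66% from the start to 200 bp downstream. The pooled list holds background regions too, as its deposited name says.

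Summits of members lay mostly upstream of the nearest start. Of the 739, 684 were upstream and 55 at or downstream of it, with a median position of -247 bp and quartiles of -454.5 and -120.5 bp. Within 250 bp of the start lay 375 members (50.7%), against 307 of 387 divergent summits (79.3%). This difference is a description with no test, since a divergent summit must have starts on both strands in reach, which shortens its distance to the nearest. Over all 1389 promoter peaks of the set the share was 58.0%. For X one-strand promoters it was 43.2% (odds ratio of members 1.35, Fisher's exact test, adjusted p = 0.0458), and this narrow call was lost in 7 alternatives, among them leaving out replicate 1 (1.07). Median positions were -144 bp at divergent and -275 bp at X one-strand promoters.

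**Figure D2:**
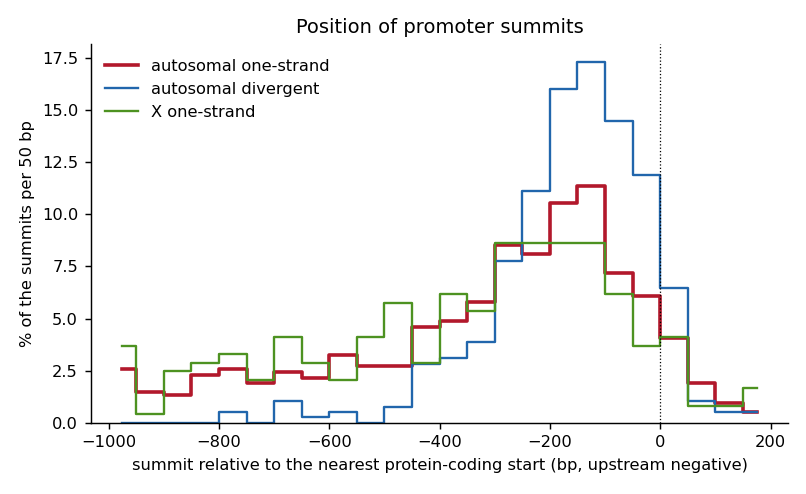
Percentage of summits per 50 bp against the distance in bp from the nearest protein-coding start, with upstream negative, for the 739 members (thick line), 387 autosomal divergent and 243 X one-strand peaks. Members peak at about the same place upstream as divergent summits but with a longer upstream tail, and 684 of them lie upstream of the start.

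At the edge of the window, the members just inside were those of ZC443.2 at 1000 bp with a score of 43.8, daf-14, a Smad of the TGF-beta pathway, at 999 bp with 39.8, and the F-box gene lin-23 at 996 bp with 37.1. The peaks just outside were those of hlh-30, a helix-loop-helix factor of the TFEB type, at 1003 bp with 53.3, of the endosomal sorting gene vps-36 at 1006 bp with 52.9 and of F40F8.5 at 1007 bp with 40.6. Scores on either side of the edge overlapped.

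The surroundings of members were mostly intergenic. Summits inside the span of a protein-coding gene made up 213 of 739 members (28.8%), against 57 of 387 divergent peaks (14.7%), again with no test, since a divergent summit must lie in windows of genes on both strands. At X one-strand promoters the share was 23.0% (odds ratio of members 1.35, Fisher's exact test, adjusted p = 0.0822). By annotation, 526 member summits were intergenic, 142 in introns, 52 in 5′ UTRs and 19 in other exons. For 164 the gene they lay in was the one whose window held them, for 41 another gene and for 8 both. The peak 278 bp upstream of a start of nurf-1 was the highest in its own gene, within an intron, and that of ncs-2, a neuronal calcium sensor, was the highest within another gene only, with a score of 63.9, 29.9 in replicate 1 and 35.4 in replicate 2. For 611 members (82.7%) the nearest start was the outermost one of the gene, against 96.1% of divergent peaks. X one-strand peaks, at 84.0%, were close to the members. These shares were not tested, since start positions define the members and the divergent peaks.

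The nearest upstream neighbour of the gene ran in the same direction for 438 members (59.3%) and in the opposite one for 300 (40.6%), while 54.4% of all autosomal protein-coding genes have a neighbour in the same direction. Gaps to it had a median of 1671 bp at members and of 1020 bp at all autosomal genes. They were shorter for neighbours in the same direction, with a median of 844 bp, than for opposite ones, with 3003 bp. A close neighbour in the opposite direction would put the summit in windows on both strands, so the choice of members sets these shares and gaps in part. A gap of at most 100 bp to a neighbour in the same direction, the spacing seen inside many operons, was found for 20 members. The share over all autosomal genes is not given here. Genes annotated as ncRNA, without a further class, lay within 200 bp of 89 members (12.04%), against 59 of 387 divergent peaks (15.2%). Within the same distance of a snoRNA gene lay 21 members (2.84%), against 4 divergent peaks (1.03%). A tRNA gene was that close to 7 members (0.947%) and 1 divergent peak (0.258%). A snRNA gene was that close to 6 members (0.812%) and 1 divergent peak (0.258%), and a piRNA gene to 5 members (0.677%) and 5 divergent peaks (1.29%). At X one-strand peaks the shares were 17.7% for ncRNA, 0.41% for snoRNA, 2.47% for tRNA and 0 for snRNA and piRNA. None of these differences was tested.

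Clustering of member peaks was uncommon. Another summit of the set lay within 1000 bp of 69 members (9.34%), against 2.84% of divergent peaks and 9.05% of X one-strand peaks. The genes with 3 member peaks were lgg-1, the Atg8 protein of autophagy, the potassium channel gene shw-1, the kinase gene mnk-1 and the phosphodiesterase gene pde-4, named after their counts were seen. The lgg-1 peaks lay 901, 323 and 105 bp upstream with scores of 55.1, 34.9 and 35.8, and the last 2 shared the same replicate peaks, with 28.2 in replicate 1 and 16.75 in replicate 2. The pde-4 peaks scored 47.6, 47.0 and 33.5 at different starts of that gene. All 4 genes lie on chromosome II.

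Both replicates supported somewhat over 50% of the members, fewer than at divergent promoters. A member was counted as supported when it overlapped the 2570 highest peaks of each replicate list, which held for 387 of 739 (52.4%), against 240 of 387 divergent peaks (62.0%; odds ratio 0.673, Fisher's exact test, adjusted p = 0.00596). Over the whole set the share was 53.3%. X one-strand peaks had 53.9% (odds ratio of members 0.940, Fisher's exact test, adjusted p = 0.711) and autosomal peaks outside promoters 50.3% (1.09, Fisher's exact test, adjusted p = 0.630). When the starting peaks came from a single replicate, support was still counted in both lists. A starting peak overlaps itself in its own list, so this support rests mainly on the other replicate and differs from the measure above. With replicate 1 peaks the comparison with outside promoters did pass (1.53, Fisher's exact test, adjusted p = 3.22e-05), and with replicate 2 peaks it was 0.969. Replicate 2 supported more members than replicate 1, with 607 (82.1%) against 502 (67.9%). Of the members, 220 overlapped only the 2570 highest peaks of replicate 2, 115 only those of replicate 1 and 17 neither. Support was 97.8% in the highest quartile of member scores, 68.5% in the next, 33.5% below that and 9.73% in the lowest. The score comes from both replicates analysed together, so a rise of support with score is built into these measures. Across the 732 members found in both replicate lists, Spearman's rho of the replicate scores was 0.1855, and it was 0.3275 over 385 divergent peaks. Selection of peaks on the pooled score leaves out peaks that are low in both replicates, while members low in 1 list remain. These correlations describe the lists only.

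**Figure D3:**
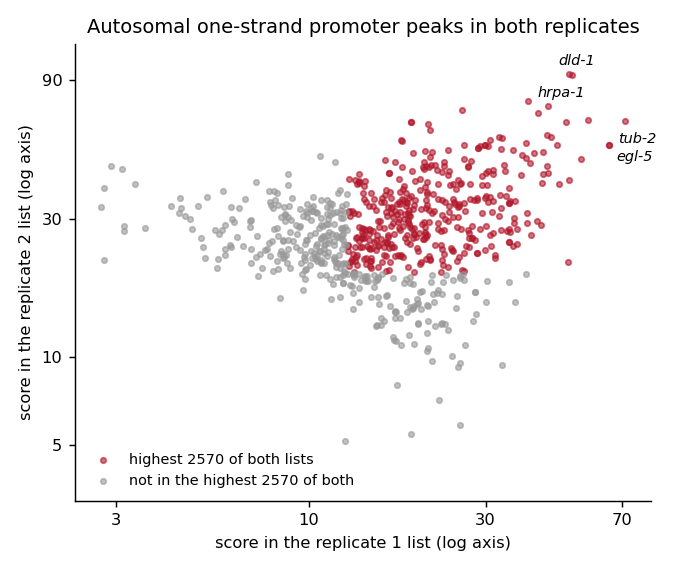
Score in the replicate 1 list against score in the replicate 2 list, both on log axes, for the 732 members with a peak in both; red points are among the 2570 highest of each list and grey points are not. The cloud has an empty lower left corner, and dld-1, hrpa-1, tub-2 and egl-5 lie at the upper right.

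Among the lists of at least 10 autosomal genes, that of cytoplasmic ribosomal proteins was the one most often holding a member peak. Ribosomal proteins build the particles that make protein and are needed in every cell. Member peaks were found at 21 of 76 autosomal cytoplasmic ribosomal protein genes (27.6%, interval 18.0 to 39.1), beside 4.20% of all autosomal protein-coding genes. Another 39 had only divergent peaks. Of all 17242 autosomal protein-coding genes, 792 had a divergent peak, 8 of them with a member peak too. The 22 peaks at these 21 genes had a median score of 51.4. Besides rps-28, rpl-3, rpl-35 and rpl-23, they included rps-17 at 249 bp upstream with 71.5, and with 20.6 in replicate 1 and 51.2 in replicate 2, and rpl-14 at 283 bp upstream with 66.7. The lowest was rps-7 at 259 bp upstream with 33.0, which had 12.15 in replicate 1 and 16.15 in replicate 2. Both replicates supported 18 of the 22. Their summits lay close together relative to the start: 17 of 22 (77.3%) were 200 to 400 bp upstream, as were 204 of all 739 members (27.6%), and their range was 547 to 169 bp upstream. Within 50 bp, 4 of the 22 held GAGAGA, beside 28.6% of all 739 members, and 5 held the T run, beside 25.6%. These few peaks were not tested against all members.

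Other lists of widely used genes had lower shares with member peaks, from 0 to 22.6%, beside 4.20% of all autosomal protein-coding genes. The highest of these, for splicing genes, had an interval of 9.59 to 41.1%, which covers the ribosomal 27.6%. Splicing and RNA-binding protein genes had member peaks at 7 of 31 (22.6%), with rsp-6, an SR splicing factor, at 86.8 and the Sm protein gene snr-4 at 60.4 below hrpa-1. Translation factors had 4 of 37, led by eif-3.B with 69.5, and tRNA synthetases 3 of 32, led by kars-1 with 52.9. Respiratory chain genes had 3 of 32, with the cytochrome oxidase subunit genes cox-5A at 87.7 and cox-5B at 86.9. Mitochondrial ribosomal protein genes had 6 of 70, led by mrpl-28 with 61.2, and chaperone genes 4 of 54, led by hsp-1. Proteasome subunit genes had 2 of 33 with member peaks, rpt-1 at 37.5 and rpn-11 at 32.1, while 17 had divergent peaks only. Nuclear pore genes had 2 of 26, tubulin and actin genes 1 of 13 (tba-2, 49.9), and vacuolar proton pump genes 0 of 17. Divergent peaks only were found at 9 splicing, 10 translation factor, 4 tRNA synthetase, 8 respiratory chain and 10 mitochondrial ribosomal genes. The same held for 13 chaperone, 6 nuclear pore, 1 tubulin or actin and 2 proton pump genes. These counts stand beside 792 of all 17242 autosomal protein-coding genes with a divergent peak, 8 of them with a member peak too. They were not tested.

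Among lists of more specialised genes, those named unc for uncoordinated movement had 12 of 78 (15.4%). The highest were unc-37, a corepressor of the Groucho type, with 86.3, unc-14, needed for axon outgrowth, with 85.2, unc-16, a kinesin adaptor, with 65.6 and the channel-associated unc-80 with 57.0. Nuclear hormone receptor genes had 5 of 246 (2.03%), led by nhr-49 with 50.2, C-type lectin genes 4 of 237 (1.69%), led by clec-149 with 60.3, and collagen genes 1 of 129 (col-34, 33.0). Histone genes had 1 of 68 (his-37, 63.9), the ceh homeobox genes 1 of 45, which was ceh-20, and chemoreceptor genes of the srh, str and srbc families 0 of 477. Of the genes known from single tissues, 1 of 5 for body wall muscle had a member peak, the MyoD-type factor hlh-1 with 50.4. For neurons it was also 1 of 5, snb-1 with 37.3, and for the germ line 2 of 6, glp-1 with 48.0 and cgh-1 with 39.2. None of the 5 autosomal genes counted for intestine, 3 for epidermis and 3 for pharynx had one. Over all autosomal protein-coding genes the share was 4.20%. The tissue lists are too short to be set against it, with intervals of 0.505 to 71.6% for body wall muscle and for neurons and 4.33 to 77.7% for the germ line. For intestine the interval was 0 to 52.2%, and for epidermis and pharynx 0 to 70.8%. The median of the best score over all genes with a member peak was 42.4. Genes with more annotated starts have more windows, which was not adjusted for.

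A set of 10 hexamers, that is sequences of 6 bases, were searched on both strands in the 101 bases around each summit and in windows of the same length centred 250 bp to each side. The GA repeat was searched as GAGAGA, the E-boxes as CAGCTG in one case and CACGTG in the other, and the GC box as GGGCGG. A core of posterior Hox sites was searched as TTTATG, a homeodomain core as TAATTA and the site of GATA factors as TGATAA. The TATA box core was TATAAA, the T run was TTTTTT and the consensus end of worm introns was TTTCAG. The T run can share bases with the Hox core, the intron end or the reversed TATA box core, and no match was removed for that. A match is a description of letters, not of binding.

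The GA repeat was the most frequent of those that were more common at summits than beside them. It was present at 211 of 739 summits (28.6%, interval 25.3 to 32.0), against a mean of 7.58% in the flanks, a ratio of 3.77 (exact McNemar test against each flank, larger adjusted p = 1.56e-24). In the 6006 one-strand pooled peaks outside the thresholded set it was present in 12.4%, in the same length 250 bp upstream of all 17242 autosomal gene starts in 6.22%, and in all 2570 peaks of the set in 26.8%. GGGCGG was at 39 summits (5.28% against 1.62% in the flanks, ratio 3.25, exact McNemar test, adjusted p = 0.00187) and 2.20% of windows at gene starts. CAGCTG was at 46 (6.22% against 2.03%, ratio 3.07, exact McNemar test, adjusted p = 0.000220) and 1.83% of windows at gene starts. CACGTG was at 27 (3.65% against 1.29%, ratio 2.84, exact McNemar test, adjusted p = 0.00848) and 1.57% of windows at gene starts, a call lost in 4 alternatives, with ratios of 1.90 without replicate 1, 2.24 with outermost starts, 2.73 among peaks above the median score and 3.25 in windows of 25 bp to each side. None of these 4 was found at 448 of the 739 summits.

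Letters rich in A and T were less common at summits than beside them. TTTCAG was at 5.55% of summits against 20.4% in the flanks (ratio 0.272, exact McNemar test, adjusted p = 4.34e-12), and TAATTA at 1.49% against 5.35% (ratio 0.279, exact McNemar test, adjusted p = 0.000220). TGATAA was at 2.98% against 10.1% (ratio 0.293, exact McNemar test, adjusted p = 1.15e-07), TATAAA at 6.09% against 12.6% (ratio 0.484, exact McNemar test, adjusted p = 8.505e-05) and TTTTTT at 25.6% against 43.5% (ratio 0.588, exact McNemar test, adjusted p = 9.34e-10). TTTATG, the posterior Hox core, was at 7.71% against 8.80% (ratio 0.877) and did not pass (exact McNemar test, adjusted p = 1.00). Its share was 11.3% over all 2570 peaks and 9.59% at gene starts. At gene starts, windows held TTTCAG in 18.4%, TAATTA in 6.41%, TGATAA in 10.5%, TATAAA in 13.0% and TTTTTT in 45.4%.

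**Figure D4:**
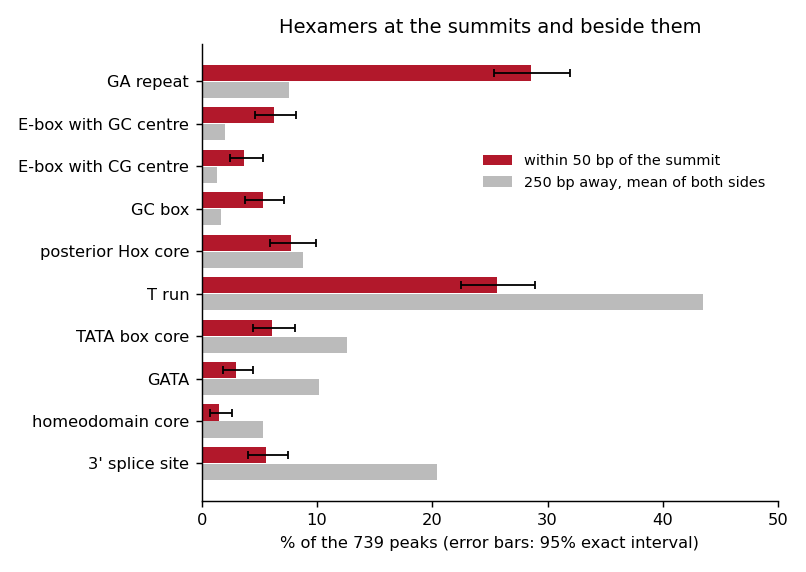
Percentage of the 739 members with each hexamer within 50 bp of the summit (red, with 95% exact binomial intervals) and in the mean of windows 250 bp to each side (grey); the rows are named as in the text. The top 4 are more frequent at summits, led by 28.6% against 7.58%, and the bottom 5 less frequent.

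These differences stood beside a difference in base composition. G and C made up a mean of 45.5% of the summit windows, against 33.7% in the upstream and 36.1% in the downstream flank, and their part in the hexamer shares was not tested. The median over members was 45.5%, with a range of 22.8 to 69.3%. Above the median of all peaks were 45.7% of members and 56.1% of divergent peaks (odds ratio 0.660, Fisher's exact test, adjusted p = 0.00164), but in windows of 100 bp to each side the odds ratio was 1.40, the other way. Autosomal peaks outside promoters had 39.1% above it (odds ratio of members 1.31, Fisher's exact test, adjusted p = 0.00800), and this too turned in the wider windows (0.621). X one-strand peaks had 59.3% (odds ratio of members 0.5795, Fisher's exact test, adjusted p = 0.000851), which in windows of 25 bp to each side was 0.917 and no longer passed. The calls against divergent and outside promoters were each lost in 3 further alternatives, and that against X in 2.

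Set against divergent promoters, GAGAGA was the one hexamer of the 10 that differed, with 211 of 739 members (28.6%) and 67 of 387 divergent peaks (17.3%; odds ratio 1.91, Fisher's exact test, adjusted p = 0.000316). Without replicate 2 the odds ratio was 1.55 and did not pass. X one-strand peaks had 27.2%. With and without the repeat, members had median scores of 41.3 and 42.1, and 49.8% and 53.4% of them were supported by both replicates. Its share was 28.6% in the highest quartile of member scores and 27.0% in the lowest. By distance it was 40.8% at 751 to 1000 bp upstream, 22.4% at 251 to 500 bp and 36.4% from the start onwards. The longest unbroken repeats among the members shown above were 18 bp at gpb-1 and 17 bp at lec-1, and 25 members had one of at least 10 bp.

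Because members have genes on 1 strand, each match has a direction. Of the 201 members with the GA repeat in 1 direction only, 141 read TCTCTC on the gene strand and 60 read GAGAGA, so that 70.1% had the CT form (exact binomial test against 50%, Benjamini-Hochberg adjusted p = 7.48e-08). A further 10 had both. The CT form was the more frequent one on each autosome, from 63.0% on V to 78.0% on III, and was 76.0% within 250 bp of the start and 64.4% farther away. The CT form was also the more frequent one elsewhere. In the members' upstream flanks 35 had the CT form and 14 the GA form, in the downstream flanks 40 and 18, at X one-strand peaks 42 and 21, in the pooled peaks outside the set 494 and 230 and upstream of all autosomal starts 670 and 387. None of the 5 differences from the members' summits passed (Fisher's exact test, adjusted p from 0.279 to 1.00).

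TTTTTT also leaned to the gene strand, with 119 members reading T there only and 59 reading A only (66.9% T; exact binomial test, adjusted p = 2.84e-05), beside 58.0% upstream of all autosomal starts, a difference that did not pass (Fisher's exact test, adjusted p = 0.130). The T form made up 65.5% in the members' downstream flanks and 63.7% in the pooled peaks outside the set, and among members above the median score it was 60% and the lean no longer passed. TTTCAG was on the gene strand in 30 of 40 (75.0%; exact binomial test, adjusted p = 0.00518), beside 49.0% upstream of all starts (Fisher's exact test of the difference, adjusted p = 0.0181) and 73.8% in the members' own downstream flanks. The TTTCAG call at summits was lost in 6 alternatives, with 57.7% without replicate 1 and 62.8% without replicate 2.

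**Figure D5:**
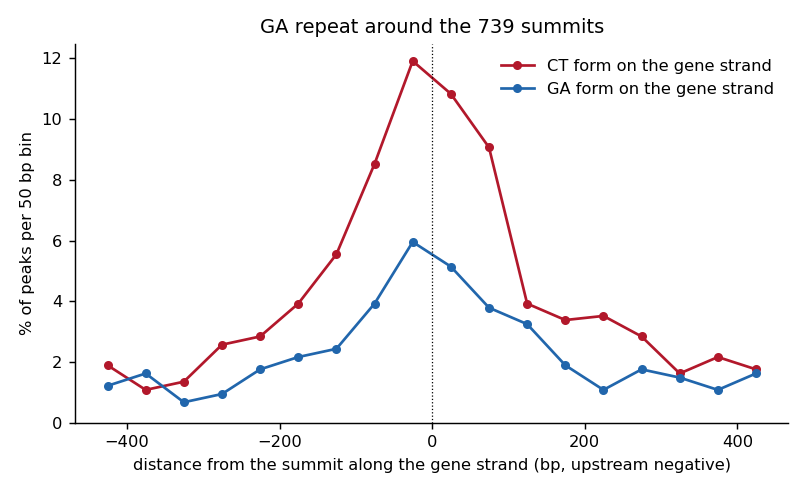
Percentage of the 739 members with the GA repeat per 50 bp against the distance in bp from the summit along the gene strand, for the CT form (red) and the GA form (blue) on that strand. Both forms are highest in the bin just upstream of the summit, at 11.9% and 5.95%, and fall off to either side.

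Members were not spread evenly over the autosomes. Chromosome I had 159 (ratio to its share of one-strand promoter sequence 1.28, exact binomial test, adjusted p = 0.00132), II had 161 (1.10, adjusted p = 0.225 by the exact binomial test), III had 145 (1.32, exact binomial test, adjusted p = 0.00106), IV had 138 (0.918, exact binomial test, adjusted p = 0.273) and V had 136 (0.650, exact binomial test, adjusted p = 2.91e-09). Against the pooled one-strand peaks, the ratios were 1.09 for I, 1.05 for III and 0.841 for V, and none of the 5 chromosomes passed (exact binomial test, adjusted p from 0.116 to 0.642). The share of members in the central 50% of the chromosome ran from 60.1% on IV to 76.5% on V. Of the pooled one-strand peaks, 60.5% on IV and 64.02% on V lay in that part. The member share was thus close to the pooled one on IV and above it on V. On I, II and III it was also above the pooled share, by less than on V. These differences were not tested.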

How the data were processed

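ChIP-seq of eGFP-EGL-5 was done in 2 biological replicates of whole L3 larvae. The authors deposited narrowPeak lists per replicate, pooled and thresholded by the irreproducible discovery rate (IDR), with a score per peak in the signal column, with its scale and the peak caller not given in the sources used here. Read depth is unknown, so no interval per peak can be given. Replicate numbers follow the deposited ce11 lists. In the ce10 lists, which were not used here, the numbers appear exchanged, so the link from number to biological sample stays uncertain. Tests count peaks, and peaks are not replicates of the worms.

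Gene starts came from Ensembl release 115 (WBcel235, called ce11 in browsers) and sequence from the RefSeq genome of that assembly. Each summit was classed by promoter windows of 1000 bp upstream and 200 bp downstream. Replicate scores were those of the highest peak overlapping by at least 1 bp. Shares were compared by two-sided Fisher's exact tests, summits with flanks by exact McNemar tests, and strands and chromosomes by exact binomial tests (scipy 1.17.1), at a threshold of 0.05 after Benjamini-Hochberg adjustment within each family. Position against divergent promoters is described with no test, since start positions define both sets. Intervals are 95% Clopper-Pearson and cover counting error only. The scripts were tested on simulated data. Alternatives were 500 and 2000 bp windows, outermost starts, peaks above the median score, each replicate alone, peaks supported by both, other distances, and, added after the data were seen, leaving out the egl-5 locus, and other expectations for strands and chromosomes. Named members are the 20 highest, the 5 highest per replicate, the highest per autosome, up to 4 per gene list and the 10 lowest. Members, lists and tests were chosen with earlier results of these data known.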

Additional observations from a re-analysis of the deposited data

How the results depend on the processing

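Of 476 results under 14 alternative settings, 396 kept their direction and their side of the threshold, or stayed within 1.5 times of their count, 43 no longer passed, 7 newly passed, 24 turned round and 6 moved. The tally includes near summits against divergent promoters, a comparison given above with no test because the choice of peaks sets it in part. It also includes the setting without the egl-5 locus, which kept 737 of the 739 members and could change little. The number of kept results is thus not a measure of robustness. No cause of the changes was tested, beyond the smaller number of peaks in some settings. No paired analysis was possible because the study has 1 group. The member count was 389 among peaks above the median score and 387 among peaks supported by both replicates, both subsets of the 739, and 695 to 754 with single replicates.

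With 500 bp windows, odds ratios of members that no longer passed were 0.958 for the kept share against X one-strand promoters, 0.731 for score against divergent promoters, 1.22 for near summits against X, and 0.746 against divergent and 1.21 against outside promoters for base composition. The score comparison with X turned to 0.983, and 3 hexamers differed from divergent promoters in place of 1. With 2000 bp windows, calls lost were 1.22 for score against outside promoters, 1.22 for near summits against X and 1.14 for base composition against outside promoters. TTTATG turned to 1.22 at summits, TGATAA to 1.21 and GGGCGG to 1.08 against divergent promoters. With outermost starts, near summits against X were lost (1.26) and summits inside genes against X passed (1.92).

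Among peaks above the median score, calls lost between sets of peaks were 0.797 against divergent and 1.18 against outside promoters for score, 1.06 for near summits against X, 0.699 for replicate support against divergent promoters, and 0.717, 0.664 and 1.35 for base composition against divergent, X and outside promoters. Support against outside promoters turned to 0.860, TGATAA to 1.79 and GGGCGG to 1.10 against divergent promoters, the gene-strand share of TGATAA to 52.9% and of TATAAA to 58.3%. The excess on chromosome III was 1.23 and did not pass, and 1 hexamer had a strand bias in place of 3. Among peaks supported by both replicates, calls lost between sets of peaks were 0.746 for score against divergent promoters, 1.20 for near summits against X, and 0.730 and 0.663 for base composition against divergent promoters and X. TGATAA turned to 1.25 and GGGCGG to 1.00 against divergent promoters, and TATAAA to 56.5% on the gene strand. Hexamer calls at summits lost were those of TGATAA (0.507) above the median score, TAATTA (0.308) and GGGCGG (3) with support by both replicates, and CACGTG in 4 settings (1.90 to 3.25). Strand calls lost were TTTTTT above the median score (60%) and TTTCAG in 6 settings.

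Leaving out each replicate in turn gave odds ratios from 0.671 to 0.813 for score against divergent promoters and from 0.867 to 1.31 against X. For near summits against X they ran from 1.07 to 1.60. For support against outside promoters they ran from 0.969 to 1.53. Only the starting peaks were taken from a single replicate there, and support, still counted in both lists, rested mainly on the other replicate. That comparison passed at 1.53 with replicate 1 peaks (Fisher's exact test, adjusted p = 3.22e-05). Against divergent promoters the odds ratios without each replicate ran from 1.55 to 1.98 for GAGAGA, 0.788 to 1.27 for TAATTA, 1.25 to 1.85 for TGATAA, 0.983 to 1.35 for TATAAA and 0.779 to 1.45 for GGGCGG, with 0 to 1 hexamers passing. At 0, without replicate 2, GAGAGA was the 1 hexamer with an unadjusted p under 0.05 by Fisher's exact test.

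With hexamer windows of 25 bp to each side, base composition against X was lost (0.917) and GGGCGG turned to 1.05 against divergent promoters. With 100 bp, base composition turned to 1.40 against divergent and 0.621 against outside promoters, TAATTA to 0.651 and TTTTTT to 0.606 against divergent promoters, and 4 hexamers differed. Near summits counted within 400 bp gave 1.35 against X and did not pass. Against the pooled one-strand peaks, the chromosome ratios of 1.09 for I, 1.05 for III and 0.841 for V did not pass. Without the egl-5 locus all recomputed results kept their call. Read depth, which these lists do not give, limits all of them.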
